A study of Mus musculus with 32 samples.

Results

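Alas2 and Hba-x are genes of the red cell lineage, and their transcripts were followed here in 4 tissues of Nox4 knockout mice. Each is represented by 1 probe, so the pair makes up 2 of the 20794 probes on the array and 2 of its 9030 gene symbols. The probes were found by their symbol in the array's annotation. The pair was chosen by values measured in these data, the low Alas2 ratio in brain and the low Hba-x ratio in kidney, so those 2 values are given as descriptions without a test. Alas2 in kidney, muscle and pancreas and Hba-x in brain, muscle and pancreas took no part in that choice and were tested.

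Alas2 encodes the erythroid form of 5-aminolevulinate synthase, the mitochondrial enzyme that joins glycine and succinyl-CoA in the opening step of haem synthesis. Its transcription depends on the erythroid factor GATA1, its translation is held back when iron is scarce, and its paralog Alas1 does the same reaction in other cells. Hba-x encodes zeta globin, the alpha-like chain of the haemoglobin made by primitive red cells of the yolk sac, which the adult chain of Hba-a1 replaces during gestation. In adult brain, kidney, muscle and pancreas, red cell transcripts come mainly with the blood left in the vessels, since young red cells still carry RNA. Nox4 is an NADPH oxidase that makes hydrogen peroxide and is most abundant in kidney.

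The knockout mice (Nox4 -/-, genotype "Nox4 knockout") were 4 males on a C57BL/6 background, aged 17 weeks, and each animal gave all 4 tissues. The comparison group was RNA pooled from male C57BL/6 wild-type mice aged 17 weeks. The pool held 4 animals by the design text and 6 by the labelling protocol. The labels do not say how Nox4 was disrupted, and no treatment is named. Each tissue of each animal was hybridised on 2 cDNA arrays with the dyes exchanged, which gives 32 arrays.

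Each value is a log2 ratio, taken here as knockout over pool, so 0 is no difference and a negative value a lower level in the knockout. A ratio holds no level, so neither the amount of Alas2 or Hba-x transcript in a tissue nor the labelled tissue itself could be checked against defining markers, and no probe named Nox4 (0 of 20794) was there to check the genotype. Arrays carried 19815 to 20684 values with medians between −0.07 and 0.05. In 14 of the 16 dye-swapped pairs, both arrays of an animal correlated below 0 across probes (r from −0.58 to 0.06), while arrays of the same tissue and dye correlated at r from 0.03 to 0.48. Whether the ratios of the arrays with the knockout in Cy3 had already been turned to knockout over pool is therefore not settled, and the effect of turning them is given beside the main results for the pair and the lists. Values beyond 8 in size were positive only with the knockout in Cy5 (920 values) and negative only with it in Cy3 (924 values). If the Cy3 ratios were turned already, Cy5 was the brighter channel in all of these. If they were left as Cy5 over Cy3, it was the knockout channel instead. These values therefore do not settle the direction either. The wild-type pool is 1 control sample, so the p-values leave out the spread among wild-type animals. Without labels of scan or print batches no batch could be examined.

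The start regions of both genes are shown because the haem enzyme and the globins are used by 1 lineage, together with that of Hba-a1, the adult alpha globin set beside them. The sequences are the 250 bases before the RefSeq start site (GRCm38.p6), 5′ to 3′ on the strand of the gene. Alas2 lies on the X chromosome (chrX:150547167-150547416, + strand), Hba-x on chromosome 11 (chr11:32276350-32276599, + strand) and Hba-a1 beside it (chr11:32283422-32283671, + strand). The files name no build, and these places come from RefSeq only. Capitals mark the core of the GATA motif (GATAA, or TTATC on the other strand) and the CACCC box (CACCC, or GGGTG on the other strand), the elements typical of erythroid promoters.
Alas2: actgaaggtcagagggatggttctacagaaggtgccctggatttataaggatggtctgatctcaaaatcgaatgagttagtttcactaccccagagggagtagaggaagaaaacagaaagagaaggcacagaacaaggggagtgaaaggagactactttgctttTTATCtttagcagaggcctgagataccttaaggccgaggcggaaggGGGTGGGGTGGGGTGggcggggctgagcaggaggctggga
Hba-x: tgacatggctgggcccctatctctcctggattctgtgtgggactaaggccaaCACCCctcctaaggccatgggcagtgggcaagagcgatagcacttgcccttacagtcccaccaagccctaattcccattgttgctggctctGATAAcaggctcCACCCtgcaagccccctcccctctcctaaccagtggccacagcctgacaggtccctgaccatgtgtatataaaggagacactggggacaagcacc
Hba-a1: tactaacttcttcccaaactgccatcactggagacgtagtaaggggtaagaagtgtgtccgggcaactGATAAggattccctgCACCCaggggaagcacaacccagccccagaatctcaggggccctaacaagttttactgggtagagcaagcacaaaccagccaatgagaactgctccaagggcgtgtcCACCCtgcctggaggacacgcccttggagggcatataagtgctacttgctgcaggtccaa

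The GATA core began 86 bases before the start in Alas2, 107 bases before it in Hba-x and 182 bases before it in Hba-a1. Alas2 held 3 CACCC boxes, all on the other strand, beginning 40, 35 and 30 bases before the start, and each globin gene held 2. A TATAA box, searched on the strand of the gene only, began 28 bases before the start in Hba-x and 27 bases before it in Hba-a1, whereas the only TATAA of the Alas2 window lay 207 bases before the start. Of 32851 start regions of the same length in RefSeq, 22.6% held the GATA core, 52% the CACCC box, 10.1% both and 16% a TATAA. These are matches of letters and not measured binding sites, and matches of the first 2 motifs do not overlap each other in the 3 windows.

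In brain, Alas2 lay below the wild-type pool on every array. Animal 1 was at −0.21 with the knockout in Cy5 and −0.29 with it in Cy3, and animal 2 at −0.16 and −0.15. Animal 3 was at −0.43 and −0.03, and animal 4 at −0.27 and −0.33 in the same order. All 8 values were therefore below 0, and only the second array of animal 3 came near it. Averaged over both arrays, the 4 animals lay between −0.30 and −0.15, with a mean of −0.23 ± 0.06 (SD, n = 4), or 0.85-fold. Of 16729 genes tested in brain, 3.51% had a lower mean, and 0.496% of the 16337 genes with 8 values were below 0 on all 8 arrays. Turning the Cy3 arrays moved the mean to −0.035. In RNA from whole tissue, fewer cells of a type and less RNA per cell cannot be told apart, here or in any later result.

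**Figure D1:**
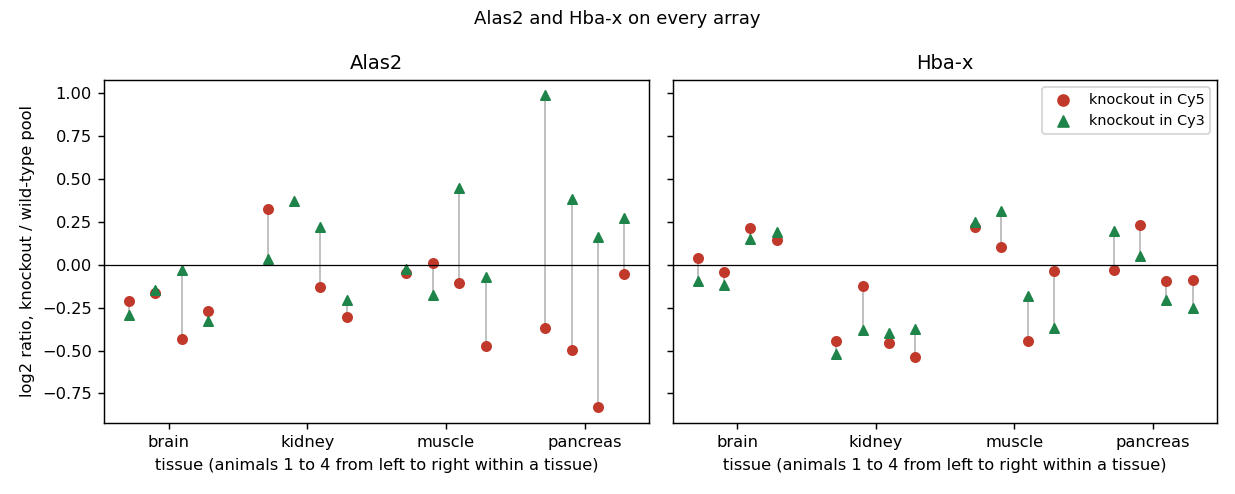
Log2 ratio of knockout over wild-type pool (vertical axis) for Alas2 (left) and Hba-x (right) on each array, by tissue, with animals 1 to 4 from left to right within a tissue. Circles are arrays with the knockout in Cy5, triangles arrays with it in Cy3, and a grey line joins both arrays of an animal. Alas2 in brain and Hba-x in kidney lie below 0 on all 8 arrays, and the Alas2 arrays of pancreas split by dye.

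Alas2 in kidney showed no common direction. Animal 1 was at 0.32 and 0.04 (knockout in Cy5, then in Cy3), animal 3 at −0.13 and 0.22, and animal 4 at −0.31 and −0.21. Animal 2 had a value of 0.37 on its Cy3 array only and was left out of the mean. Animal 4 was thus the only one below 0 on both arrays. The mean over the 3 complete animals was −0.01 ± 0.09 (SE, n = 3), with a 95% interval of −0.25 to 0.23 (limma, adjusted p = 0.977). With animal 2 kept on its single array, the mean was 0.08.

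Muscle gave a similar picture for Alas2. Animal 1 was at −0.05 and −0.03, animal 2 at 0.01 and −0.18, animal 3 at −0.10 and 0.45, and animal 4 at −0.47 and −0.07 (Cy5, then Cy3). Animals 1, 2 and 4 averaged below 0 and animal 3 above it, so the animals straddled the pool. The mean was −0.06 ± 0.09 (SE, n = 4), with a 95% interval of −0.28 to 0.17 (limma, adjusted p = 0.853). Without animal 4 it was 0.02, on the other side of 0.

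Alas2 in pancreas depended on the dye. With the knockout in Cy5, the 4 animals were at −0.37, −0.50, −0.83 and −0.06, and with it in Cy3 the same animals were at 0.99, 0.38, 0.16 and 0.28. Every Cy5 array lay below the pool and every Cy3 array above it, with no overlap. The dye means were −0.44 and 0.45, a gap of −0.89 that was the widest of the pair in any tissue. In the animal means this cancelled to 0.01 ± 0.12 (SE, n = 4), with a 95% interval of −0.31 to 0.33 (limma, adjusted p = 0.997). Without animal 1 it was −0.09 and without animal 4 −0.03. If the Cy3 arrays are turned instead, the mean becomes −0.44, short of the threshold (limma, adjusted p = 0.0530). The direction of Alas2 in pancreas therefore rests on how the Cy3 ratios were deposited, which was not settled.

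Hba-x in kidney was below the pool on every array and by more than Alas2 in brain. Animal 1 was at −0.44 and −0.52 (Cy5, then Cy3), animal 2 at −0.13 and −0.38, animal 3 at −0.46 and −0.40, and animal 4 at −0.54 and −0.37. The Cy5 array of animal 2 stood nearest to 0. The 4 animals lay between −0.48 and −0.25 with a mean of −0.40 ± 0.10 (SD, n = 4), or 0.755-fold, and the dye means were −0.39 and −0.42. Of 16825 genes tested in kidney, 0.517% had a lower mean, and 0.899% of the 16676 genes with 8 values were below 0 on all 8 arrays. Turning the Cy3 arrays gave a mean of 0.014, since values that are alike in both orientations then cancel.

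In brain, Hba-x had animals on both sides of the pool. The arrays of animal 1 gave 0.04 and −0.10, those of animal 2 −0.04 and −0.12, those of animal 3 0.21 and 0.15, and those of animal 4 0.15 and 0.19 (Cy5, then Cy3). Animals 3 and 4 were above 0 on both arrays and animal 2 below 0 on both. The mean was 0.06 ± 0.07 (SE, n = 4), with a 95% interval of −0.11 to 0.23 (limma, adjusted p = 0.800).

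Muscle split the animals the other way for Hba-x. In animal 1 the values were 0.22 and 0.25, in animal 2 0.10 and 0.31, in animal 3 −0.45 and −0.18, and in animal 4 −0.04 and −0.37 (Cy5, then Cy3). Both arrays of each animal fell on the same side, above the pool in animals 1 and 2 and below it in animals 3 and 4. The mean was −0.02 ± 0.12 (SE, n = 4), with a 95% interval of −0.32 to 0.28 (limma, adjusted p = 0.967). Without animal 3 it was 0.08 and without animal 4 it was 0.04.

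In pancreas, animals 1 and 2 again averaged above the pool for Hba-x and animals 3 and 4 below it. In animal 1 they were −0.03 and 0.20, in animal 2 0.23 and 0.05, in animal 3 −0.09 and −0.21, and in animal 4 −0.09 and −0.25 (Cy5, then Cy3). As animal means, animals 1 and 2 were at 0.08 and 0.14 and animals 3 and 4 at −0.15 and −0.17. The mean was −0.02 ± 0.09 (SE, n = 4), with a 95% interval of −0.26 to 0.21 (limma, adjusted p = 0.992). Without animal 3 or animal 4 it was 0.02. In brain the sides were exchanged, with animals 1 and 2 at −0.03 and −0.08 and animals 3 and 4 at 0.18 and 0.17. The split of the animals was seen in the data and not tested.

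**Figure D2:**
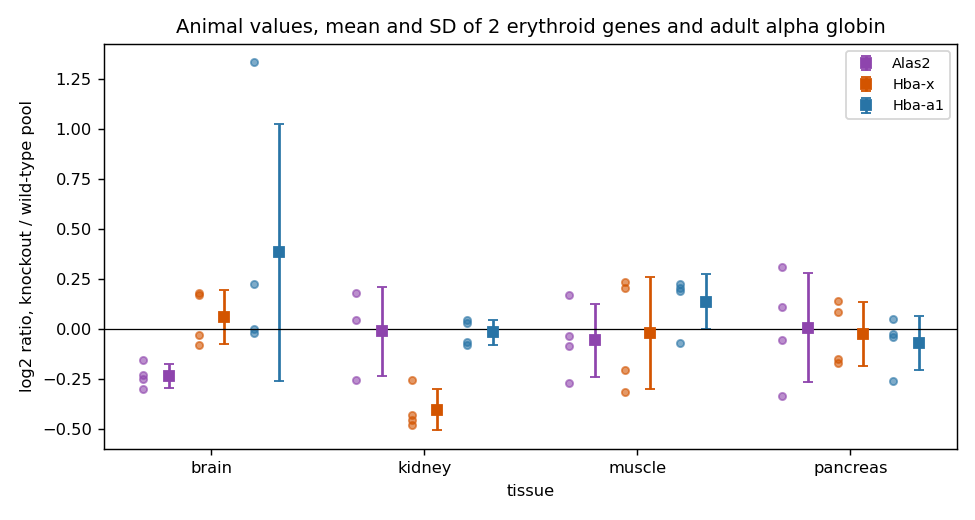
Log2 ratio of knockout over wild-type pool (vertical axis) by tissue for Alas2, Hba-x and Hba-a1. Points are animals (mean of 2 arrays), squares the mean and bars the SD over 4 animals, or 3 for Alas2 in kidney. The Hba-x values of kidney lie between −0.48 and −0.25, and the single high Hba-a1 value of brain, 1.34, holds a value at the floor of the array.

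None of the 6 tests of the pair against the pool passed, and the same fits called no other gene. At an adjusted p of 0.05, limma called 0 of 16729 genes (0%) in brain and 0 of 16825 (0%) in kidney. It also called 0 of 16662 genes (0%) for muscle and 0 of 16377 (0%) for pancreas. At an unadjusted p under 0.05 the shares were 4.13% (691 genes), 9.28% (1562 genes), 7.29% (1215 genes) and 2.91% (477 genes) in the same order, and none of the 6 tested values of the pair was among them. Turning the Cy3 arrays gave 1 called gene in brain, 0 in kidney, 328 for muscle and 2388 for pancreas, and the 6 tested values of the pair were not among them. A spread shared by the 4 tissues gave 0 called genes in brain, 0 in kidney, 255 for muscle and 57 for pancreas.

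Ordered by ratio, Alas2 ran from brain (−0.23) through muscle (−0.06) and kidney (−0.01) to pancreas (0.01). The brain animals (−0.30 to −0.15) overlapped those of muscle (−0.27 to 0.17), kidney (−0.26 to 0.18) and pancreas (−0.34 to 0.31). Brain had the narrowest spread, with an SD of 0.06 against 0.18 in muscle, 0.22 in kidney and 0.27 in pancreas. The brain values served to choose the gene, so this spread is a description only. Over all genes tested, the median SD was 0.13 in brain, 0.17 in muscle, 0.10 in kidney and 0.22 in pancreas. Among the 3 tissues that did not serve to choose the gene, kidney minus muscle was 0.04 ± 0.15 (SE; 95% interval −0.27 to 0.36), kidney minus pancreas −0.02 ± 0.15 (−0.34 to 0.30) and muscle minus pancreas −0.06 ± 0.14 (−0.36 to 0.23). None passed (limma, adjusted p = 0.9997, 0.998 and 0.890). If the Cy3 arrays are turned, kidney minus pancreas was 0.42 and muscle minus pancreas 0.35, and neither passed (limma, adjusted p = 0.0916 and 0.183).

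Hba-x ran from kidney (−0.40) through pancreas (−0.02) and muscle (−0.02) to brain (0.06). The kidney animals did not overlap those of pancreas (−0.17 to 0.14) or brain (−0.08 to 0.18), and overlapped those of muscle (−0.31 to 0.23). Over the whole array, 3.18% of genes had kidney animals all below the brain animals, and 1.89% had them all below the pancreas animals. The 3 differences without kidney were close to 0. Brain minus muscle was 0.08 ± 0.13 (SE; 95% interval −0.19 to 0.35), brain minus pancreas 0.08 ± 0.13 (−0.19 to 0.36) and muscle minus pancreas 0.01 ± 0.13 (−0.27 to 0.28). None passed (limma, adjusted p = 0.894, 0.881 and 0.991). Leaving out 1 animal moved brain minus muscle as far as −0.06 (without animal 3) and muscle minus pancreas as far as −0.04 (without animal 1). If the Cy3 arrays are turned, muscle minus pancreas was −0.051 and brain minus pancreas −0.000375.

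As background to these 6 comparisons of tissues, each contrast was fitted over 16257 genes. Muscle differed from brain in 75 genes (0.461%), from pancreas in 94 (0.578%) and from kidney in 2 (0.0123%). Pancreas differed from brain in 0 genes (0%) and from kidney in 0 (0%). At an unadjusted p under 0.05 the shares for muscle were 9.23% against brain, 12.8% against pancreas and 6.23% against kidney, and those for pancreas 8.29% against brain (1347 genes) and 5.67% against kidney (921 genes). With the animal as a block, muscle differed from brain in 0 genes, from pancreas in 24 and from kidney in 0. Without animal 1 the counts were 223, 115 and 44 in that order, and without any other animal they were at most 1, 3 and 0. Turning the Cy3 arrays gave 1, 5 and 0, and 1510 genes for pancreas against brain and 355 for pancreas against kidney. A fit of only the 2 tissues compared called 0 genes in each of these 5 contrasts. The intervals of the pair's own differences are wide, so the tissues are not shown to be alike.

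With the signs as deposited, the pair differed in how well both arrays of an animal matched. For Hba-x, both arrays lay on the same side of 0 in 14 of 16 combinations of animal and tissue, and their values correlated at r = 0.77 over the 16 pairs. With the mean of each tissue and dye removed, so that the low kidney values could not carry it, r was 0.56. For Alas2 the arrays lay on the same side in 8 of 15 pairs, with r = −0.14, and r = 0.17 within tissues. The median over 15990 genes was −0.12, or −0.06 within tissues. Of these genes 99.2% had a lower r than Hba-x and 46.7% a lower r than Alas2, and within tissues 94.97% and 71.7% did. The counts of pairs and the r over all pairs take in the values that served to choose the pair. These are Hba-x in kidney and Alas2 in brain, where both arrays of every animal lay below 0, which added to the counts. The pairs share the wild-type pool and the animals of the 4 tissues, and these values are a description. With the Cy3 arrays turned, each r takes the opposite sign and the order of the genes by r is reversed. Pairs on the same side of 0 then fall on opposite sides.

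**Figure D3:**
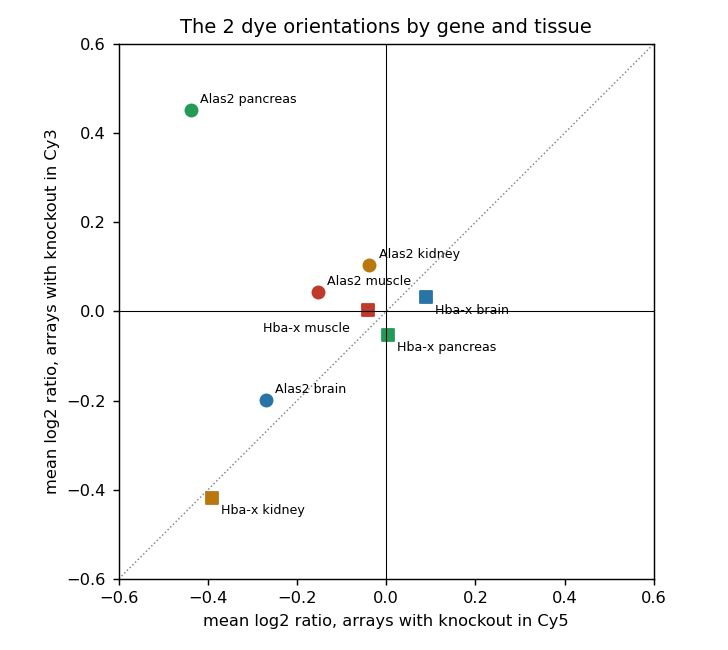
Mean log2 ratio over the arrays with the knockout in Cy5 (horizontal axis) against the mean over the arrays with it in Cy3 (vertical axis) for each gene and tissue, circles for Alas2 and squares for Hba-x, 4 arrays to a mean (3 for Alas2 in kidney with Cy5). Points on the dotted line have equal values in both orientations, as Hba-x in kidney nearly does (−0.39 and −0.42), while Alas2 in pancreas lies far from it (−0.44 and 0.45).

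The adult alpha globin Hba-a1, the bulk alpha chain of red cells in the circulation, had no value that passed the test in any tissue. It has 6 probes, which were averaged. In kidney, where Hba-x was low, the 4 animals were at −0.06, −0.08, 0.05 and 0.03, with a mean of −0.02 ± 0.04 (SE, n = 4; limma, adjusted p = 0.913). In brain, where Alas2 was low, they were at −0.02, 0.00, 0.22 and 1.34, with a mean of 0.38 ± 0.25 (limma, adjusted p = 0.773). The high value of animal 4 held a value at the floor of the array on 1 probe, and with that value taken as missing the brain mean was 0.04 ± 0.12 (SD, n = 4).

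In muscle Hba-a1 was at 0.14 ± 0.08 (SE, n = 4; limma, adjusted p = 0.687), with animals at 0.20, −0.07, 0.19 and 0.22, and in pancreas at −0.07 ± 0.09 (limma, adjusted p = 0.991), or 0.043 with the Cy3 arrays turned. Its probes did not all point the same way. In brain the 5 probes with 4 animals ran from −0.15 to 0.11, and the other, which held the floor value, stood at 7.91 in 1 animal. In muscle 1 probe stood at 0.75 over 3 animals and the other 5 ran from −0.10 to 0.10. In kidney they ran from −0.12 to 0.05, and in pancreas, among the 5 probes with 4 animals, from −0.24 to 0.23. Over the animals and tissues, Hba-a1 correlated with Hba-x at r = −0.03 (16 values) and with Alas2 at r = −0.30 (15 values), and Alas2 correlated with Hba-x at r = −0.19 (15 values). Hba-a1 was the only adult globin among 6 listed and Hba-x the only embryonic or minor globin among 7 listed with a named probe.

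Haem synthesis beyond Alas2 was covered by 5 enzymes, and none passed the test in any tissue as deposited. Alas1, the form of the same enzyme found in all cells, was above the pool in all 4 animals in brain, at 0.17 ± 0.07 (SE, n = 4; limma, adjusted p = 0.773), and below it in all 4 animals in pancreas, at −0.11 ± 0.07 (adjusted p = 0.991). In kidney it was at −0.01 and in muscle at −0.07. Its brain value lay on the other side of the pool from that of Alas2.

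Alad, which makes porphobilinogen in the step after Alas2, lay between 0.00 and 0.07 in all 4 tissues. Uros, which closes the porphyrin ring, was at 0.01 in brain, 0.04 in kidney and −0.39 ± 0.19 in muscle (SE, n = 4; limma, adjusted p = 0.673). In pancreas it held a floor value and stood at −2.28 with it and 0.12 over 2 animals without it. With the Cy3 arrays turned, Uros in muscle was at 0.49 and passed the test.

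Ppox, the last but one enzyme of the pathway, was at 0.48 ± 0.12 in pancreas (SE, n = 3; limma, adjusted p = 0.991), above the pool in the 3 complete animals. Animal 1, left out of that mean, had a value on its Cy5 array only, which was −0.32. Ppox was at 0.11 in kidney, −0.11 in brain and −0.04 in muscle, and turning the Cy3 arrays gave −0.05 in kidney and 0.16 in brain. Fech, which inserts iron to finish haem, lay between −0.04 and 0.06, and its 2 probes were on opposite sides of 0 in brain (−0.15 and 0.06), kidney (0.15 and −0.09) and muscle (0.08 and −0.17). Of all genes tested, 53.4% lay above 0 in brain and 51.5% in kidney, against 41.6% for muscle and 50.4% for pancreas. The median of the 5 enzymes was 0.01 in brain and 0.03 in kidney, −0.04 for muscle and 0.06 for pancreas, against 0.01, 0.00, −0.02 and 0.00 over all genes tested. As deposited, 3 of 5 lay above 0 in brain, 4 in kidney, 1 for muscle and 3 for pancreas. Turning the Cy3 arrays made these counts 5, 4, 2 and 4.

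Genes that carry haem and its precursors or break haem down included 13 with a probe, and 0 passed in each tissue as deposited. In brain 10 of 13 lay below 0 (median −0.04), led by Hmox2, the constitutive haem oxygenase, at −0.35 ± 0.13 (SE, n = 4; limma, adjusted p = 0.773), or 0.06 with the Cy3 arrays turned. In muscle 10 of 13 lay above 0 (median 0.05), and Hmox2 was again the gene of smallest p, at 0.31 ± 0.12 (adjusted p = 0.661). Turning the Cy3 arrays changed these counts to 3 of 13 below in brain and 5 of 13 above in muscle. It put 6 of 13 above 0 in kidney and 6 of 13 in pancreas, against 7 and 10 as deposited. Abcb6 and Blvra in pancreas passed the test after the turn. In kidney Abcb6, a porphyrin transporter, led at 0.08 ± 0.04 (adjusted p = 0.576), and in pancreas Flvcr2 led at 0.12 ± 0.10 (adjusted p = 0.991).

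Of the iron genes, 11 had a probe and 0 passed in any tissue as deposited. The genes of smallest p were Glrx5, a mitochondrial iron-sulphur protein needed for haem synthesis in red cell precursors, at −0.20 ± 0.12 in brain, Ncoa4, which delivers ferritin for breakdown, at 0.11 ± 0.04 in kidney, and the ferritin light chain Ftl1 at −0.16 ± 0.06 in muscle (SE, n = 4). In pancreas it was the ferritin heavy chain Fth1 at −0.43 ± 0.39, whose mean was 0.08 with its floor value taken as missing. Limma gave adjusted p = 0.773, 0.525, 0.661 and 0.991 for these 4 values. After turning, 7 of 11 lay above 0 in brain, 5 of 11 in kidney, 8 of 11 for muscle and 6 of 10 for pancreas, against 5, 7, 5 and 4 as deposited. Slc11a2 in pancreas passed the test with the Cy3 arrays turned. The list medians were −0.04, 0.01, −0.01 and 0.00 in brain, kidney, muscle and pancreas.

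Markers of the red cell itself gave no call in any tissue as deposited. In brain 11 of 14 tested genes of the red cell membrane and cytosol lay above 0 (median 0.02), led by Car1, a carbonic anhydrase of red cells, at 0.12 ± 0.07 (SE, n = 4; limma, adjusted p = 0.773). In kidney 8 of 14 did (median 0.01), and the leading gene Prdx2, the main peroxiredoxin of red cells, was at −0.17 ± 0.06, below 0 in all 4 animals but at 0.19 with the Cy3 arrays turned (adjusted p = 0.522). Muscle had 6 of 14 above 0 (Car1 at −0.21 ± 0.08, adjusted p = 0.661) and pancreas 4 of 14 (Bpgm, which makes the regulator of oxygen release, at −0.37 ± 0.17, adjusted p = 0.991). Slc4a1, the anion exchanger known in red cells as band 3, was singled out after its values were seen. It was at 0.00 in brain and 0.01 in kidney, against 0.06 for muscle and 0.15 for pancreas. After turning the Cy3 arrays it was at −0.16 in brain and −0.05 in kidney. The same turn put 9 of 14 red cell markers above 0 in brain, 6 in kidney, 7 for muscle and 9 for pancreas, with 3 calls, all in pancreas (Car1, Tspo2 and Xk).

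Erythroid transcription factors gave no call as deposited either. In brain they lay mostly below the pool, with 9 of 10 below 0 and a median of −0.06. Nfe2, a partner of small Maf proteins on globin genes, led them at −0.25 ± 0.07 (SE, n = 4), below 0 in all 4 animals (limma, adjusted p = 0.773). GATA1 and KLF1, factors of the GATA motif and the CACCC box, gave values chosen for mention after they were seen. Whether they bind the matches shown above was not measured. Gata1 was at −0.02 in brain and 0.06 in kidney, and Klf1 at −0.14 in brain and −0.02 in kidney, and in brain both changed sign with the Cy3 arrays turned (0.22 and 0.19). In kidney 6 of 10 factors lay below 0 (median −0.01), led by Tal1 at −0.11 ± 0.04 (adjusted p = 0.525).

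In muscle 8 of the 10 factors lay below 0 (median −0.11), although Lmo2, a bridging protein of the GATA1 complex, was the gene of smallest p at 0.64 ± 0.22 (SE, n = 4; limma, adjusted p = 0.659). In pancreas 9 of 10 lay above 0 (median 0.13), led by the GATA1 cofactor Zfpm1 at 0.30 ± 0.14 (adjusted p = 0.991). With the Cy3 arrays turned, 5 of 10 were below 0 in brain, 4 of 10 in muscle and 6 of 10 above 0 in pancreas, and the calls were Gata1 for muscle and Bcl11a, Gata1 and Nfe2 for pancreas. The majority below 0 in brain and in muscle was thus not kept.

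**Figure D4:**
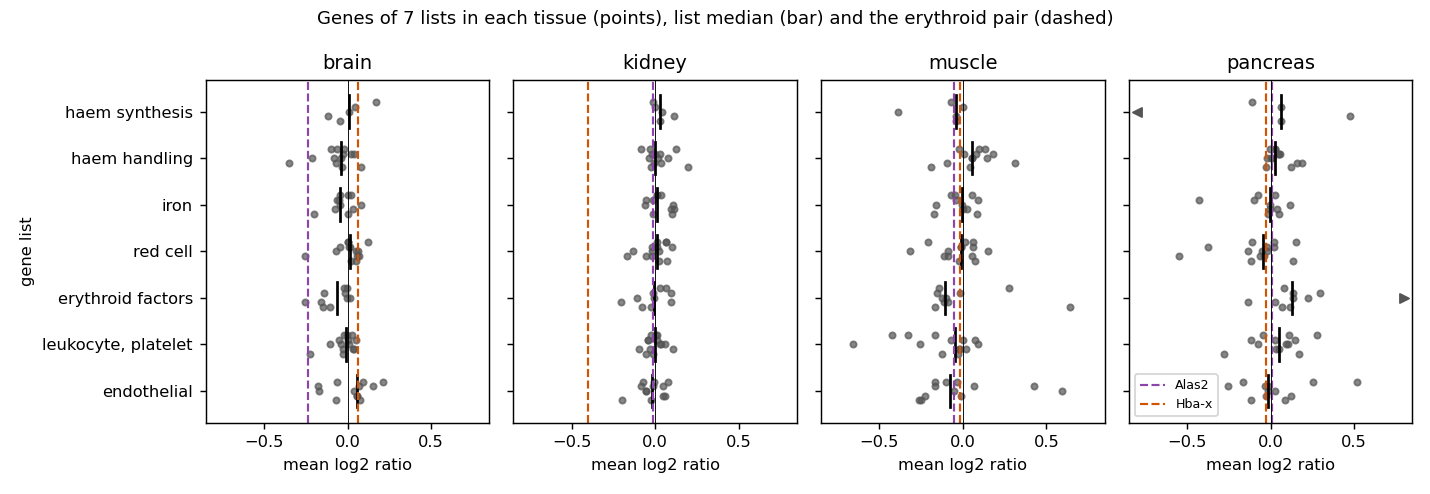
Mean log2 ratio of knockout over wild-type pool (horizontal axis) of the genes of 7 lists (vertical axis, 1 point a gene), with the list median as a bar, in each tissue. Dashed lines mark Alas2 and Hba-x, which are left out of the points, and arrowheads stand for Uros (−2.28) and Ldb1 (2.25) in pancreas, whose means hold floor values. In kidney the Hba-x line lies left of every point, and in brain the Alas2 line lies left of all but 3 points.

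White cells, platelets and vessels also come with blood, and their markers were read beside the pair. Of the 14 leukocyte and platelet genes, 6 lay above 0 in brain (median −0.01) and 7 in kidney (median 0.00), with individual means from −0.23 to 0.05 and from −0.09 to 0.11. S100a8, a neutrophil calcium-binding protein, led in brain at −0.23 ± 0.14 (SE, n = 4; limma, adjusted p = 0.773), and Itga2b, the platelet integrin, in kidney at 0.11 ± 0.04 (adjusted p = 0.525). In muscle 3 of 14 were above 0, with the platelet chemokine Pf4 at −0.33 ± 0.08 (n = 3, adjusted p = 0.588), and in pancreas 9 of 13 were, with Cd79b of B cells at 0.14 ± 0.10 (adjusted p = 0.991). Turning the Cy3 arrays put 12 of 14 above 0 in brain, 9 in kidney and 9 for muscle, and 8 of 13 for pancreas. Pf4 in muscle was then at 0.80 and passed the test, as did Ppbp and S100a9 in pancreas.

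Of 12 endothelial markers, 8 lay above 0 in brain (median 0.06), led by the junction protein Esam at 0.21 ± 0.06, and 4 in kidney (median −0.02), led by Egfl7 at −0.20 ± 0.05 (SE, n = 4; limma, adjusted p = 0.773 and 0.511). In muscle 3 were above 0, with the angiopoietin receptor Tek at 0.60 ± 0.14 (adjusted p = 0.538), and in pancreas 5, with Pecam1 at 0.25 ± 0.12 (adjusted p = 0.991). After the turn 11 of 12 were above 0 in brain and 7 of 12 in each other tissue, and Tek in muscle was at −0.27. Ramp2 and Tek in pancreas then passed the test. The amount of blood in the tissues was not measured otherwise, and the part of these cells in the Alas2 and Hba-x values was not tested. Of the 28 leading values named for the 7 lists, 17 changed sign with the Cy3 arrays turned.

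The genes whose values ran most like each of the pair were sought among all named genes. For Alas2, over 15 animal values and 8006 genes, they were Mcm2, a subunit of the replicative helicase (r = 0.88), Nol12, a nucleolar protein (r = 0.85), Zswim3 (r = 0.85), Fbxw7, a substrate adaptor of a ubiquitin ligase (r = 0.85), and Rab37, a GTPase of secretory vesicles (r = 0.83). Without the brain values, r was 0.77 to 0.90 over 11 values. All 5 averaged below the pool in brain, from −0.17 to −0.05, and all lay nearer to 0 there than Alas2.

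For Hba-x, over 16 animal values and 7999 genes, the most alike were Pdcd1, a receptor on T cells (r = 0.92), and the chromatin protein Pogz (r = 0.90). Next came Tnnc2, the troponin C of fast muscle fibres, Slc22a6, the organic anion transporter of the proximal tubule, and Fcho1, of clathrin pits (r = 0.89 each). The kidney means of these 5 genes were −0.23, −0.28, −0.41, −0.33 and −0.26 in this order, all below the other tissues. Over the 12 values without kidney, r was 0.75 to 0.90. The values share the pool and the animals, the genes were ranked by r, and no erythroid gene was among either set of 5. Both rankings took in the values that served to choose the pair, so low means in brain or kidney were favoured by them. The r without that tissue comes from the same ranked values and is a description only.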

How the data were processed

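The members and gene lists were chosen with earlier results of these data known. The authors deposited 1 log2 ratio for every probe on an array, normalised in a way not given in the sources used here; base 2 was inferred from their size, and scanner, background and dye correction are not stated. Values beyond 8 in size (1844 of 655162, 0 of them for Alas2 or Hba-x) stood apart and are called floor values; they were kept, or taken as missing in an alternative. Probes of a symbol and the 2 arrays of an animal were averaged, both arrays being required. limma 3.58.1 (R 4.3.3; lmFit and eBayes, two-sided) tested each tissue mean against 0 over all genes with at least 3 animals, with Benjamini-Hochberg adjustment and a threshold of 0.05. The pool counts as 1 control, so its spread is left out. Differences between tissues came from 1 fit of 4 tissues (12 residual degrees of freedom). Adjusted p-values cover all genes. Alternatives tried were other dye signs, single dyes, an 8-array fit, floor values as missing, array scaling, a robust or shared spread, the animal as a block and leaving out animals; background correction could not be varied. The computation was tested on simulated data. Tissues of an animal are paired, since the same mice are labelled in each; deviations of an animal correlated between tissues at r from −0.10 to 0.12. The number of knockout animals and the single pool limit the precision. Named by rule were the pair, measured globin and haem synthesis genes, the gene of smallest p of each other list per tissue, and the 5 genes correlating best with each of the pair (floor values left out; Alas2 had 15 of 16 values). Slc4a1, Gata1 and Klf1 were added later.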

Additional observations from a re-analysis of the deposited data

Results flagged for a closer look

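In 6 of 92 groups of 4 animal values, 1 animal stood apart from the other 3 by a gap test, where chance marks about 1 group in 20. Neither Alas2 nor Hba-x was among them. For Hba-a1 in muscle, animal 2 gave −0.070 while the rest ranged from 0.19 to 0.22. For Uros in muscle, animal 3 gave −1.11 while the rest ranged from −0.21 to −0.09. Ftl1 in the same muscle sample of animal 3 was −0.29, with −0.13 to −0.11 elsewhere. Brain of animal 4 gave −0.63 for Glrx5 and −0.75 for S100a8, with −0.08 to −0.02 and −0.11 to 0.01 elsewhere. For Fth1 in pancreas, animal 1 gave −1.90, which holds a floor value, with −0.04 to 0.23 elsewhere.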

How the results depend on the processing

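Of 168 values of the pair under alternatives, 140 counted as kept, 27 changed sign and 1 moved by more than the spread of the animals, and the cause was not tested. Kept means the same direction and side of the threshold. For Alas2 in brain and Hba-x in kidney, which were not tested, it means the same direction and a move smaller than the SD. Several alternatives could not move a mean, since each gene has 1 probe and 0 floor values. A robust or shared spread also leaves means unchanged, so 140 is no measure of stability. With the Cy3 arrays turned, Alas2 was −0.035 in brain and −0.44 in pancreas, with kidney minus pancreas 0.42 and muscle minus pancreas 0.35. In that setting Hba-x was 0.014 in kidney and 0.029 in pancreas, with brain minus pancreas −0.000375 and muscle minus pancreas −0.051, and Hba-a1 was 0.043 in pancreas. In kidney Alas2 was 0.021 in a fit of 8 arrays with a dye term, 0.084 with single arrays kept and 0.10 on Cy3 arrays alone. Cy3 arrays alone put Alas2 in muscle at 0.043, Hba-x in muscle at 0.00225, and Hba-a1 at −0.027 in brain and 0.0154 in kidney. Cy5 arrays alone put Alas2 in pancreas at −0.44 and Hba-x in pancreas at 0.00425. Centring and scaling the arrays put Hba-x in muscle at 0.057. 

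Leaving out 1 animal gave ranges of −0.26 to −0.21 for Alas2 in brain, −0.13 to 0.017 in muscle and −0.094 to 0.12 in pancreas. The ranges for Hba-x were 0.020 to 0.11 in brain, −0.46 to −0.38 in kidney, −0.10 to 0.078 in muscle and −0.079 to 0.024 in pancreas. Those of its differences were −0.059 to 0.20 for brain minus muscle, −0.000167 to 0.19 for brain minus pancreas and −0.044 to 0.061 for muscle minus pancreas. Without animal 2, Hba-a1 in kidney was 0.00392, the highest of a range from −0.038. Alas2 in kidney had too few animals for a value without animals 1, 3 or 4. With the animal as a replicate block, the differences of Alas2 were 0.04, −0.02 and −0.06 and those of Hba-x 0.08, 0.08 and 0.01, and no call of the pair changed.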
